A study of Mus musculus with 24 samples.

Results

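The genes described here are 10 genes of endothelial cells: Cdh5 and Pecam1, which encode proteins of cell junctions, Ptprb, a phosphatase that acts on both junction and receptor, Kdr, Flt1, Flt4, Tek and Tie1, receptor tyrosine kinases, Eng, an accessory receptor, and Oit3, which encodes a secreted protein and is neither a junction nor a receptor gene. They were taken by symbol, 10 of the 41388 genes in the files, and all 10 passed the filter on low counts that left 16757 genes for testing. The list was chosen by earlier results from the same libraries, and which measured values served for it is not recorded, so every difference between groups below is a description of these genes and does not support the choice of them. RNA came from mouse livers and was selected with oligo-dT. The knockout mice carry the label LSALT2KO, a liver-specific knockout of alanine transaminase 2, the enzyme encoded by Gpt2, and the control mice carry the label fl/fl, given in the study's design as WT. The labels do not name the Cre driver, the age or the strain. Every title carries the letter M, which the titles do not explain. Knockout mice fasted for 18 h gave 6 libraries, knockout mice fed ad libitum 6, control mice fasted for 18 h 5 and control mice fed ad libitum 5, which makes 22 libraries. A further control fasted library (replicate 4) was left out because it carried kidney transcripts (Kap at 7041 and Alb at 123 deposited CPM), and a further control fed library (replicate 6) because its file was damaged. Nothing in the labels says that the libraries came from separate animals, and the p-values then reflect spread between libraries, which may be technical.

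Endothelial cells line the blood vessels, and in the liver most of them form the sinusoids, whose wall is perforated and lets plasma reach the hepatocytes. They hold to each other through VE-cadherin and CD31 at their borders. Vascular endothelial growth factors act on them through a family of receptor tyrosine kinases, and angiopoietins act through Tie2 and its partner Tie1, pathways known to govern vessel growth and leakiness. Endoglin serves the same cells as an accessory receptor for bone morphogenetic proteins that circulate in blood and are made in the liver.

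The 22 libraries held 18.4 to 55.3 M reads assigned to genes, with group medians of 46.5 M in knockout fasted, 34.0 M in knockout fed, 39.3 M in control fasted and 29.2 M in control fed libraries. Mitochondrial genes took 3.45 to 6.98% of the reads. Gpt2 was read first as a check of the labels, in CPM (counts per M gene-assigned reads, with TMM scaling in all CPM below unless called deposited). It stood at 52.1 to 148 CPM in knockout fasted libraries, against 557 to 795 CPM in control fasted libraries, and at 48.3 to 78 CPM in knockout fed libraries, against 307 to 447 CPM in control fed libraries. The hepatocyte transcript Alb averaged 70084 ± 19792 CPM (SD, n = 22), and the proximal tubule transcripts Kap and Slc34a1 averaged 0.533 ± 1.9 and 0.404 ± 1.07 CPM over the same libraries. Markers of lymphatic endothelium were near the limit of detection, with Mmrn1 at 0.228 ± 0.261 CPM and Pdpn at 0.148 ± 0.204 CPM (SD, n = 22). The sinusoidal endothelial markers Stab2 and Stab1, which encode scavenger receptors, averaged 55.3 ± 15.1 and 49 ± 10.8 CPM (SD, n = 22). In bulk liver RNA, fewer endothelial cells and less of a transcript in each cell cannot be told apart.

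The promoters of the receptor genes Kdr, Flt1 and Tek are given as the 250 bases before the RefSeq start, 5′ to 3′ on the strand of the gene. Capitals mark GGAA, the core letters bound by ETS factors, or TTCC where these letters lie on the other strand. The sequences are from RefSeq on GRCm38.p6, at chr5:75978456-75978705 on the reverse strand for Kdr, chr5:147726012-147726261 on the reverse strand for Flt1 and chr4:94739039-94739288 on the forward strand for Tek.
Kdr: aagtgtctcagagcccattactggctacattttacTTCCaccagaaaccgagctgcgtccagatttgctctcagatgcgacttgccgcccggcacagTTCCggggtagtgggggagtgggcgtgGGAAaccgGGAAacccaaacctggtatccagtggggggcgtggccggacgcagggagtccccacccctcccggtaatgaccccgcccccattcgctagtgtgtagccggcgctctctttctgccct
Flt1: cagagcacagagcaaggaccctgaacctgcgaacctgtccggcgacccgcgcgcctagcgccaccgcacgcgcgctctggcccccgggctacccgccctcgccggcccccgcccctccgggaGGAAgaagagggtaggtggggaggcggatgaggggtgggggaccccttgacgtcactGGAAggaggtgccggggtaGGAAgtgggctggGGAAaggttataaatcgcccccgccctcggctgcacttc
Tek: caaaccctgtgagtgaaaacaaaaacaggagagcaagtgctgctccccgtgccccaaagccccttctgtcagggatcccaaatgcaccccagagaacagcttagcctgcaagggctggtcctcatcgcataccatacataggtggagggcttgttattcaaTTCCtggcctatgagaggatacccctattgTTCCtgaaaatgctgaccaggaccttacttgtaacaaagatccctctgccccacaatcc
GGAA occurred 4 times on both strands together upstream of Kdr, 4 times upstream of Flt1 and 2 times upstream of Tek. Of the 10 genes, 6 had a promoter in the RefSeq table, and in the others of these the letters occurred 7 times upstream of Tie1, 3 times upstream of Eng and 2 times upstream of Flt4. The letters are common: 93.4% of 32851 mouse promoters of the same length held them at least once, the median was 3, and 33.4% held 4 or more. The 7 occurrences of Tie1 were reached by 3.82% of promoters. These matches are letters in a window and not sites of binding.

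Per kilobase of exon, Eng was the most abundant of the 10 genes and Flt1 the least. Eng, on chromosome 2 (32646595 to 32682669, forward strand, GRCm38), encodes endoglin and averaged 12.1 ± 2.5 RPKM over the 22 libraries (CPM per kilobase of exon, SD), above 83.7% of the genes tested. Oit3 (chromosome 10, 59422958 to 59441778, reverse strand), which encodes a secreted protein with a zona pellucida domain, followed with 6.36 ± 2.3 RPKM. Eng exceeded Oit3 and Oit3 exceeded Kdr in 22 of 22 libraries. Kdr (chromosome 5, 75932827 to 75978458, reverse strand), the main signalling receptor for vascular endothelial growth factor A, averaged 4.64 ± 1.3 RPKM, Ptprb (chromosome 10, 116301374 to 116389538, forward strand), the phosphatase VE-PTP, 4.6 ± 1.2 RPKM and Cdh5 (chromosome 8, 104101625 to 104144502, forward strand), VE-cadherin, 4.3 ± 1.5 RPKM. The order of these neighbours was not fixed: Kdr lay above Ptprb in 12 of 22 libraries and Ptprb above Cdh5 in 14 of 22.

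Flt4 (chromosome 11, 49609263 to 49652739, forward strand), the receptor for vascular endothelial growth factors C and D, averaged 3 ± 0.83 RPKM. Tie1 (chromosome 4, 118471191 to 118490061, reverse strand), an orphan receptor that modulates Tie2, averaged 2.59 ± 0.89 RPKM, and Pecam1 (chromosome 11, 106654217 to 106750628, reverse strand), the adhesion molecule CD31, 1.96 ± 0.56 RPKM. Tek (chromosome 4, 94739289 to 94874976, forward strand), the angiopoietin receptor Tie2, averaged 1.64 ± 0.73 RPKM and Flt1 (chromosome 5, 147561604 to 147726011, reverse strand), a high-affinity receptor that also serves as a decoy for vascular endothelial growth factor A, 0.981 ± 0.38 RPKM. Cdh5 lay above Flt4 in 20 libraries, Flt4 above Tie1 in 18, Tie1 above Pecam1 in 18, Pecam1 above Tek in 16 and Tek above Flt1 in 21 of the 22. So the 3 receptors for vascular endothelial growth factors differed in level, with Kdr first and Flt1 last. The Eng exons share 61 of 3870 bases with Fpgs on the other strand, a gene read at 177 CPM, and whether counting used the strand is not given in the sources used here. A part of the Eng reads is uncertain.

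**Figure D1:**
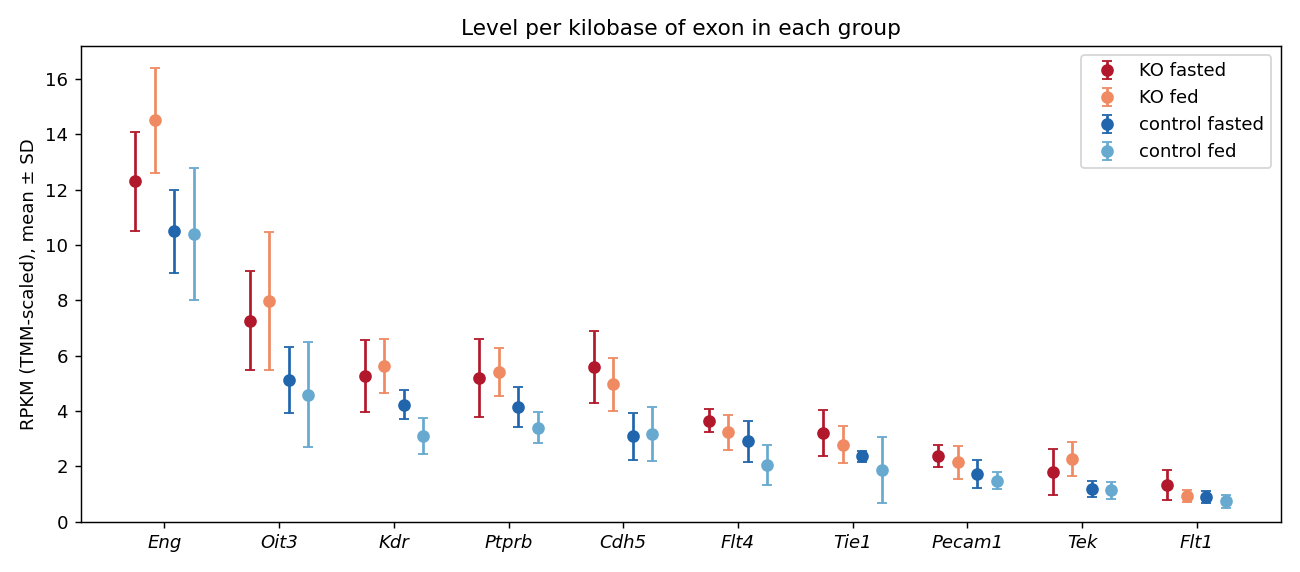
Levels of the 10 genes per kilobase of exon in RPKM, with points for the mean of each group (n = 6 in each knockout and n = 5 in each control group) and bars for the SD. Eng lies highest in every group, at a mean of 12.3 RPKM in knockout fasted, 14.5 in knockout fed, 10.5 in control fasted and 10.4 in control fed livers, and Flt1 lowest, at 0.981 RPKM over all 22 libraries.

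All 10 genes were higher on average in knockout than in control livers, both in fed and in fasted mice. In fed mice the fold ran from 1.28 for Flt1 to 2.01 for Tek, with Kdr next at 1.82. In fasted mice the difference was smaller for 8 of the 10, all but Cdh5 and Flt1, though no difference between the feeding states passed the test. Cdh5 and Kdr passed the test when the feeding states were averaged, and no gene of the 10 passed in a single feeding state with edgeR. Each comparison below was fitted with edgeR over all genes tested, calls were made where the p adjusted by Benjamini and Hochberg over these genes lay under 0.05, and a log2 fold change is given with its standard error.

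Among the genes of the junction, Cdh5 in knockout fed livers had a lowest value of 16.8, a median of 18.3 and a highest value of 26.9 CPM, against 18.9, 11.8, 8.09, 11.5 and 12.9 CPM in control fed livers. In knockout fasted livers it had a lowest value of 16.5, a median of 22.6 and a highest value of 29.6 CPM, against 16.7, 14.3, 10, 12.3 and 8.14 CPM in control fasted livers. In each feeding state 1 control library, replicate 1, reached into the range of the knockout libraries, and the other 4 lay below it. The log2 fold change was 0.64 ± 0.20 in fed mice (edgeR, Benjamini-Hochberg adjusted p = 0.288) and 0.86 ± 0.20 in fasted mice (adjusted p = 0.462). Averaged over the feeding states it was 0.75 ± 0.14, or 1.68 times the control level (adjusted p = 0.0288). Cdh5 took 11.7 ± 1.5% of the summed RPKM of the 10 genes in knockout fasted livers (SD, n = 6) and 8.44 ± 1.6% in control fasted livers (n = 5), and 9.98 ± 0.98% in knockout fed livers (n = 6) and 9.83 ± 1.5% in control fed livers (n = 5).

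Pecam1 ranged over 9.12 to 16.8 CPM in knockout fed livers, against 6.22 to 11.3 CPM in control fed livers, and over 11.6 to 17.9 CPM in knockout fasted livers, against 6.6 to 14.9 CPM in control fasted livers. The ranges overlapped in both feeding states. Ptprb, whose product removes phosphate from Tie2 and associates with VE-cadherin, had a lowest value of 46.3, a median of 67.1 and a highest value of 73.5 CPM in knockout fed livers, against 47.3, 37.4, 31.1, 46.4 and 40.0 CPM in control fed livers. Of the 6 knockout fed libraries, 5 lay above every control fed library. In knockout fasted livers Ptprb ranged over 32.7 to 79.9 CPM, against 40.5 to 60.4 CPM in control fasted livers, and the lowest value of all was a knockout library, replicate 1. The averaged log2 fold change was 0.50 ± 0.15 for Pecam1 (edgeR, Benjamini-Hochberg adjusted p = 0.270) and 0.50 ± 0.12 for Ptprb (adjusted p = 0.155), neither past the threshold. Without knockout fasted replicate 1, Ptprb passed at 0.56 (adjusted p = 0.00717).

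**Figure D2:**
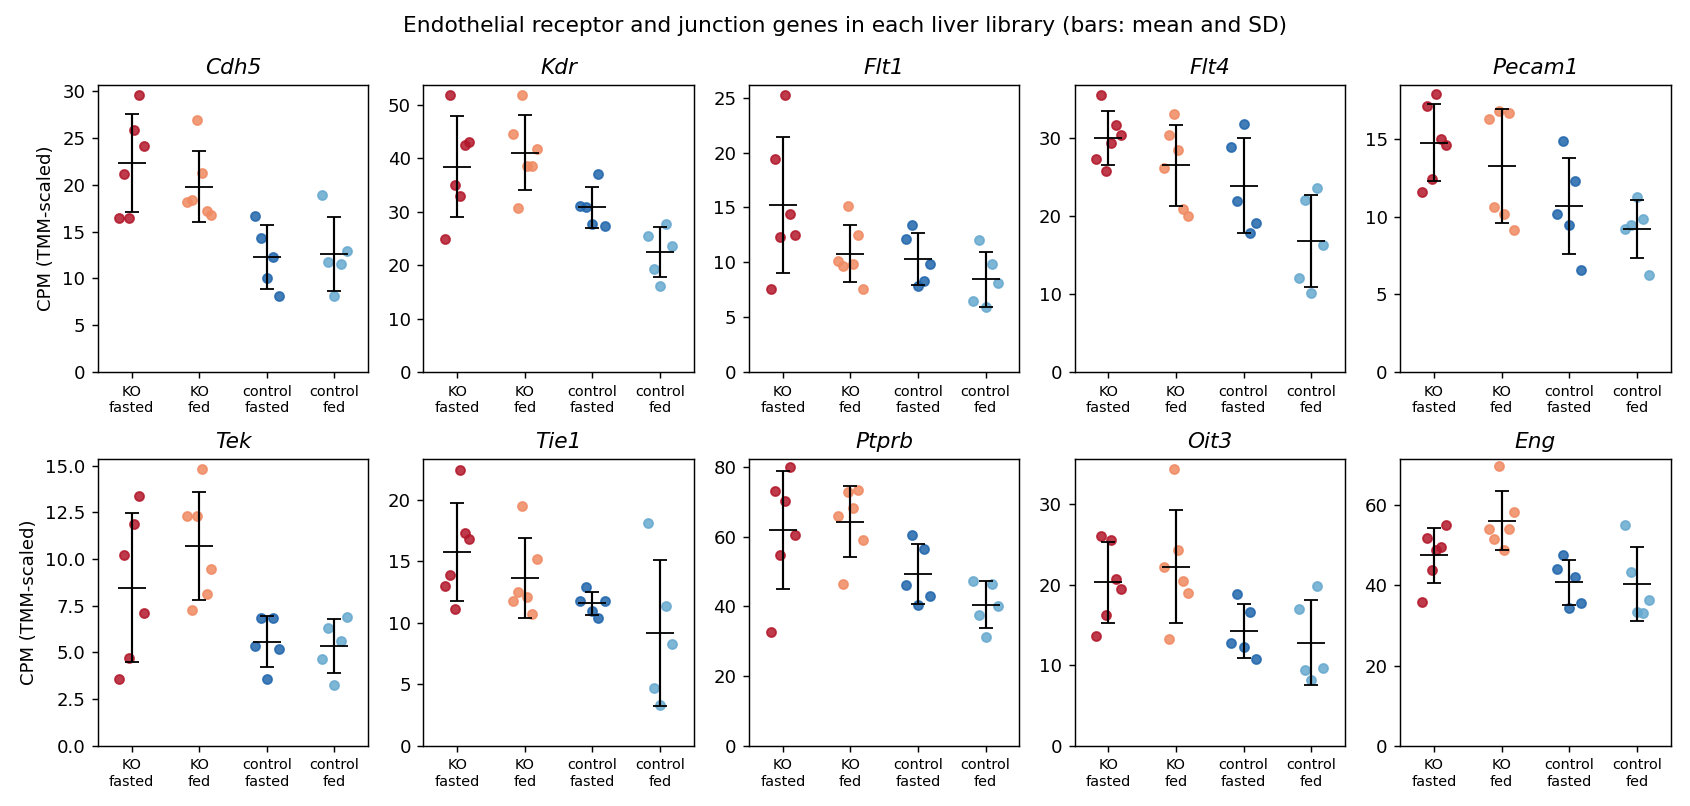
TMM-scaled CPM of each of the 10 genes, with 1 point for each library in knockout fasted (n = 6), knockout fed (n = 6), control fasted (n = 5) and control fed (n = 5) livers, and black bars for the mean and SD of the group. In fed mice the points of Kdr and Tek do not overlap between genotypes: Kdr lies at 30.7 to 51.8 CPM in knockout and 16.1 to 27.7 CPM in control livers, and Tek at 7.29 to 14.8 CPM in knockout and 3.23 to 6.89 CPM in control livers.

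Of the receptors for vascular endothelial growth factors, Kdr differed most between genotypes in fed mice. It had a lowest value of 30.7, a median of 40.2 and a highest value of 51.8 CPM in knockout fed livers, against 25.5, 19.3, 16.1, 27.7 and 23.6 CPM in control fed livers. In knockout fasted livers the lowest value was 24.8, the median 38.7 and the highest 51.9 CPM, against 31.1, 30.9, 27.7, 37.0 and 27.3 CPM in control fasted livers. The genotypes did not overlap in fed mice and did overlap in fasted mice, where 1 knockout library, replicate 1, lay below every control library. The log2 fold change was 0.87 ± 0.16 in fed mice (edgeR, Benjamini-Hochberg adjusted p = 0.0511), and 0.31 ± 0.16 in fasted mice (adjusted p = 1). Averaged over the feeding states it was 0.59 ± 0.11, or 1.51 times the control level (adjusted p = 0.0288). In fed mice Kdr passed without knockout fed replicate 2 or 4, knockout fasted replicate 1, 2, 4 or 6, control fed replicate 4, or control fasted replicate 5, at adjusted p between 0.0151 and 0.0488.

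Flt1 was the least different of the 3 in fed mice, with 7.6 to 15.1 CPM in knockout fed livers, against 6.43, 12.0, 5.95, 9.84 and 8.09 CPM in control fed livers, and a log2 fold change of 0.35 ± 0.24. In fasted mice it ranged over 7.55 to 25.2 CPM in knockout livers, the widest spread of the 3 receptors relative to its mean (40.7%), against 12.1, 13.4, 7.82, 8.32 and 9.85 CPM in control livers. Flt4 ranged over 20.1 to 33.1 CPM in knockout fed livers, against 12.1, 22.1, 10.1, 23.6 and 16.3 CPM in control fed livers, and 4 of the 6 knockout libraries lay above every control library. In fasted mice it ranged over 25.8 to 35.6 CPM in knockout livers, against 17.8 to 31.8 CPM in control livers. The averaged log2 fold change was 0.46 ± 0.17 for Flt1 (edgeR, Benjamini-Hochberg adjusted p = 0.421) and 0.49 ± 0.13 for Flt4 (adjusted p = 0.209), and neither was called.

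Of the angiopoietin receptor pair, Tek had the largest log2 fold change of the 10 genes in fed mice. It had a lowest value of 7.29, a median of 10.9 and a highest value of 14.8 CPM in knockout fed livers, against 4.65, 6.31, 3.23, 5.59 and 6.89 CPM in control fed livers, so that the genotypes did not overlap. In knockout fasted livers the lowest value was 3.56, the median 8.67 and the highest 13.4 CPM, against 5.32, 6.85, 3.58, 6.87 and 5.2 CPM in control fasted livers. There 4 of the 6 knockout libraries lay above every control library, and replicates 1 and 3, at 3.56 and 4.7 CPM, lay among or below them. The log2 fold change was 1.01 ± 0.29 in fed mice (edgeR, Benjamini-Hochberg adjusted p = 0.234), 0.61 ± 0.28 in fasted mice (adjusted p = 1) and 0.81 ± 0.20 averaged (adjusted p = 0.174). Without knockout fasted replicate 1 the averaged value was 0.89 and passed (adjusted p = 0.0498).

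Tie1 ranged over 10.7 to 19.5 CPM in knockout fed livers, against 18.1, 4.73, 3.33, 11.4 and 8.31 CPM in control fed livers, a spread of 64.4% of the mean in the control group. In fasted mice the control libraries were close together, at 10.4 to 12.9 CPM, and the knockout libraries ranged over 11.1 to 22.4 CPM, with 5 of 6 above every control library. The averaged log2 fold change of Tie1 was 0.51 ± 0.20 (edgeR, Benjamini-Hochberg adjusted p = 0.446). For Oit3 the ranges were 13.2 to 34.3 CPM in knockout fed and 8.12 to 19.8 CPM in control fed livers, and 13.6 to 26.1 CPM in knockout fasted and 10.8 to 18.8 CPM in control fasted livers. For Eng they were 48.8 to 69.7 CPM in knockout fed and 33.2 to 55.2 CPM in control fed livers, and 35.9 to 55.1 CPM in knockout fasted and 34.3 to 47.6 CPM in control fasted livers. Both genes overlapped between genotypes in each feeding state, with averaged log2 fold changes of 0.65 ± 0.17 for Oit3 (adjusted p = 0.201) and 0.35 ± 0.10 for Eng (adjusted p = 0.222), the smallest of the 10.

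Counted together, 0 of the 10 genes were called between genotypes in fed mice by edgeR, where 0.00597% of all genes tested were called. An unadjusted p under 0.05 was reached by 8 of the 10, and by 1509 of the 16757 genes tested. In fasted mice 0 of 10 were called, again beside 0.00597% of all genes. There 5 of 10 had an unadjusted p under 0.05, as had 672 of the 16757 genes tested. Among the 10 that count was 1 without knockout fasted replicate 2, and 2 without knockout fasted replicate 4 or control fasted replicate 1, 3 or 6. It was 3 without knockout fasted replicate 5 and 8 without knockout fasted replicate 1. DESeq2 called 1 of the 10 in fed mice, Kdr, and 0 in fasted mice, and limma voom called 0 in each. The median log2 fold change of the 10 was 0.65 in fed and 0.46 in fasted mice, while over all genes tested it was 0.00 and 0.01. In fed mice 2 of the 10, Kdr and Tek, had every knockout library above every control library, as did 0.698% of all genes (0.477% had every knockout library lower), and in fasted mice 0 of 10 did, beside 0.31% of all genes.

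The genotype difference averaged over both feeding states was added after the data had been seen. It called 2 of the 10 genes, Cdh5 and Kdr, both higher in knockout livers, while 0.0358% of all genes tested were called, and 0.0298%, or 5 genes, were higher in knockout livers. All 10 had an unadjusted p under 0.05, as had 1459 of the 16757 genes tested, and the median log2 fold change was 0.50, against 0.01 over all genes. DESeq2 called 2 of the 10 and limma voom with sample weights 1. Neither Cdh5 nor Kdr was called when any 1 of 9 libraries was left out: replicates 1, 3 and 4 of knockout fed, 2 and 6 of knockout fasted, 2 and 3 of control fed, and 3 and 6 of control fasted mice. The call of Cdh5 also ended without control fasted replicate 5 and that of Kdr without knockout fed replicate 6 or control fasted replicate 2. The adjusted p in these fits lay between 0.0515 and 0.0924 for Cdh5 and between 0.0508 and 0.0924 for Kdr, and the log2 fold changes between 0.69 and 0.76 for Cdh5 and between 0.54 and 0.6 for Kdr. With the library that carried kidney transcripts kept, the log2 fold change was 0.66 for Cdh5 (edgeR, Benjamini-Hochberg adjusted p = 0.406) and 0.60 for Kdr (adjusted p = 0.222). Both calls also ended in a limma voom fit without sample weights that took neighbouring title numbers as a random block. There the log2 fold change was 0.75 for Cdh5 (limma, adjusted p = 0.0966) and 0.56 for Kdr (adjusted p = 0.126). No such fit was run without the block, so the parts of the method and of the block cannot be told apart. Among genes with a mean CPM of 1 or more both calls ended too (edgeR, adjusted p = 0.0566 for each). With limma voom Kdr missed the threshold (adjusted p = 0.0509).

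**Figure D3:**
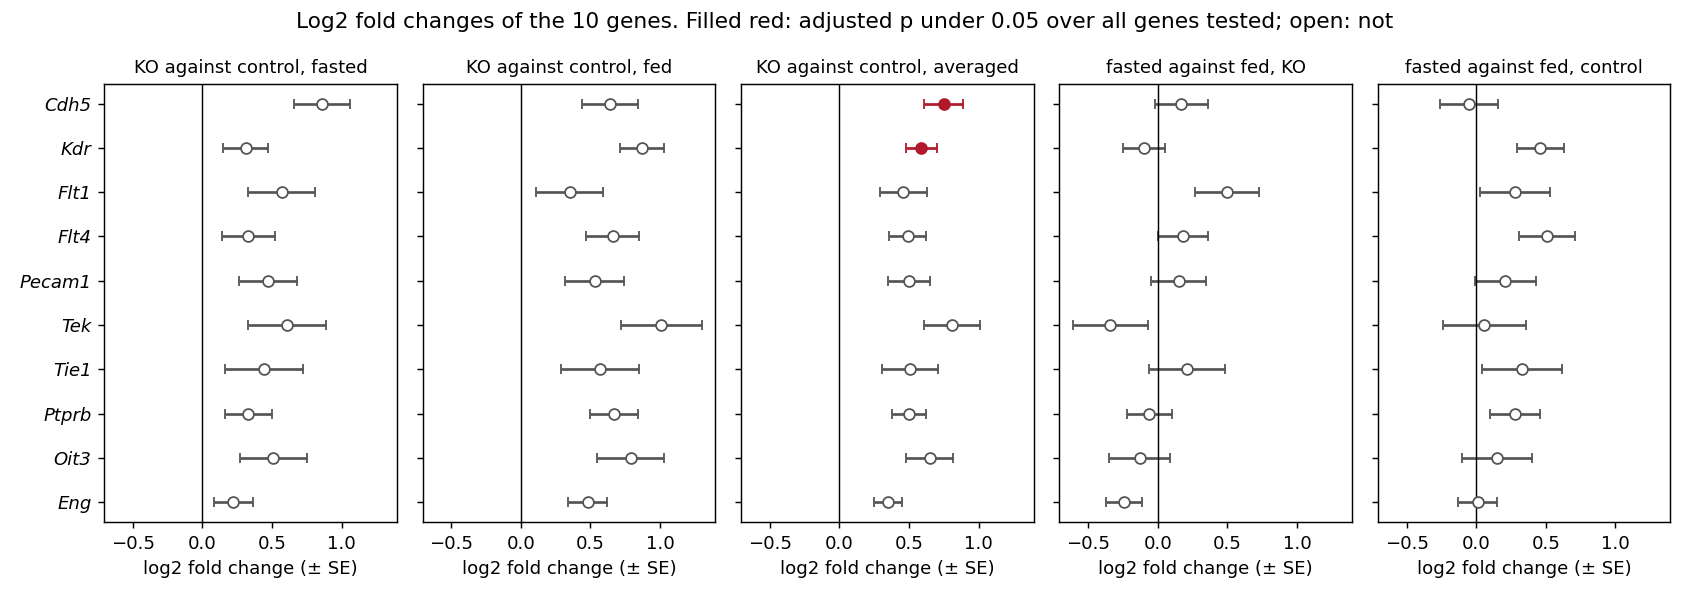
Log2 fold changes of the 10 genes (points, filled red where called) with standard errors (bars), for the genotype difference in fasted mice, in fed mice and averaged, and for fasting in each genotype. The genotype values all lie above 0, at 0.22 to 0.86 in fasted and 0.35 to 1.01 in fed mice, while those of fasting lie on both sides of 0, at -0.34 to 0.50 in knockout and -0.05 to 0.51 in control mice.

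Fasting for 18 h left the 10 genes without a call in either genotype. In knockout mice 5 of the 10 had a log2 fold change above 0 and 5 below, the median was 0.05, and edgeR called 0 of 10, beside 6.14% of all genes tested (2.88% called higher and 3.26% lower). Only Flt1 of the 10 had an unadjusted p under 0.05, beside 2678 of the 16757 genes tested. Flt1 averaged 15.2 ± 6.2 CPM in fasted and 10.8 ± 2.61 CPM in fed knockout livers (SD, n = 6 each). Its log2 fold change was 0.50 ± 0.23 (edgeR, Benjamini-Hochberg adjusted p = 0.257). Tek and Eng had the lowest values, a log2 fold change of -0.34 ± 0.27 for Tek and -0.24 ± 0.13 for Eng. None of the 10 had every fasted library above or below every fed library, as 1.81% of all genes did upwards and 2.15% downwards. DESeq2 and limma voom also called 0 of 10. The median was 0.14 without knockout fasted replicate 1, where 7 of 10 lay above 0, or without knockout fed replicate 3, where 6 did, 0.09 without knockout fasted replicate 3, and between -0.03 and 0.03 without knockout fasted replicate 2, 4 or 5 or knockout fed replicate 2, 4 or 6. Flt1 had no unadjusted p under 0.05 without knockout fasted replicate 2 or 4 or knockout fed replicate 1, 2 or 6.

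In control mice 9 of the 10 had a log2 fold change above 0, with a median of 0.25, and edgeR called 0 of 10, beside 8.12% of all genes tested (3.99% called higher and 4.13% lower). Kdr and Flt4, both receptors for vascular endothelial growth factors, had an unadjusted p under 0.05, as had 3276 of the 16757 genes tested. Kdr averaged 30.8 ± 3.89 CPM in fasted and 22.5 ± 4.69 CPM in fed control livers (SD, n = 5 each), a log2 fold change of 0.46 ± 0.17 (edgeR, Benjamini-Hochberg adjusted p = 0.0932). Flt4 averaged 23.9 ± 6.1 CPM in fasted and 16.8 ± 5.97 CPM in fed control livers (SD, n = 5 each), a log2 fold change of 0.51 ± 0.20 (adjusted p = 0.116), and it passed without control fed replicate 4, at 0.67 (adjusted p = 0.0348). The median was 0.12 without control fasted replicate 2 and 0.15 without control fed replicate 3, with 7 of 10 above 0 in each, and ran up to 0.34 without another library. Without control fasted replicate 3 or control fed replicate 3, 1 of the 10 had an unadjusted p under 0.05. Every group overlapped here too, where 3.87% of all genes did not overlap upwards and 4.03% downwards. DESeq2 and limma voom called 0 of 10.

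Whether the response to fasting differed between genotypes was tested as an interaction. Kdr had the lowest value, -0.55 ± 0.23 on the log2 scale (edgeR, Benjamini-Hochberg adjusted p = 0.997), since it averaged 38.3 ± 9.44 CPM in fasted and 41 ± 7.03 CPM in fed knockout livers while it was higher in fasted than in fed control livers. Each of edgeR, DESeq2 and limma voom called 0 of 10. With edgeR 1 of 10 had an unadjusted p under 0.05, as had 786 of the 16757 genes tested. The 10 values had a median of -0.27, and 8 lay below 0. The median was -0.15, with 6 below 0, without knockout fed replicate 3, it was -0.18 without either control fasted replicate 2 or control fed replicate 3, and it reached -0.37 without control fed replicate 1, where 2 of 10 had an unadjusted p under 0.05. Over all genes tested 0.00597% were called. The comparisons share groups: the fed control libraries stand in the fasting effect of control mice, in the genotype difference of fed mice and in the interaction, so their values are not independent.

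The 10 genes varied together from library to library within a group. Their summed level was 231 to 352 CPM in knockout fed livers, against 131 to 214 CPM in control fed livers, and 186 to 320 CPM in knockout fasted livers, against 177 to 242 CPM in control fasted livers. In 5 libraries all 10 genes lay above their median over the 22 libraries: knockout fasted replicates 2, 4, 5 and 6 and knockout fed replicate 3. In control fed replicate 3 and control fasted replicate 6 none of the 10 did. That median spans all groups, so these counts also carry the difference between genotypes. Knockout fasted replicate 1 had the lowest sum of its group, 186 CPM, with 3 of 10 genes above their median.

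With each group's mean taken away, Pearson's r of the log2 CPM over the 22 libraries had a median of 0.51 over the 45 pairs of genes and lay above 0 in 43 pairs. The highest values, 0.80, joined Ptprb with Kdr, with Tek and with Oit3. Flt4 and Eng had the lowest, -0.01. Set against the mean of the other 9 genes, Ptprb (r = 0.85) and Oit3 (0.83) followed the rest most closely, Cdh5 (0.76), Kdr (0.75) and Tek (0.71) came next, Eng (0.66), Flt1 (0.65) and Tie1 (0.54) followed, and Pecam1 (0.43) and Flt4 (0.27) followed least. These values describe the libraries and share their depth and cell makeup.

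**Figure D4:**
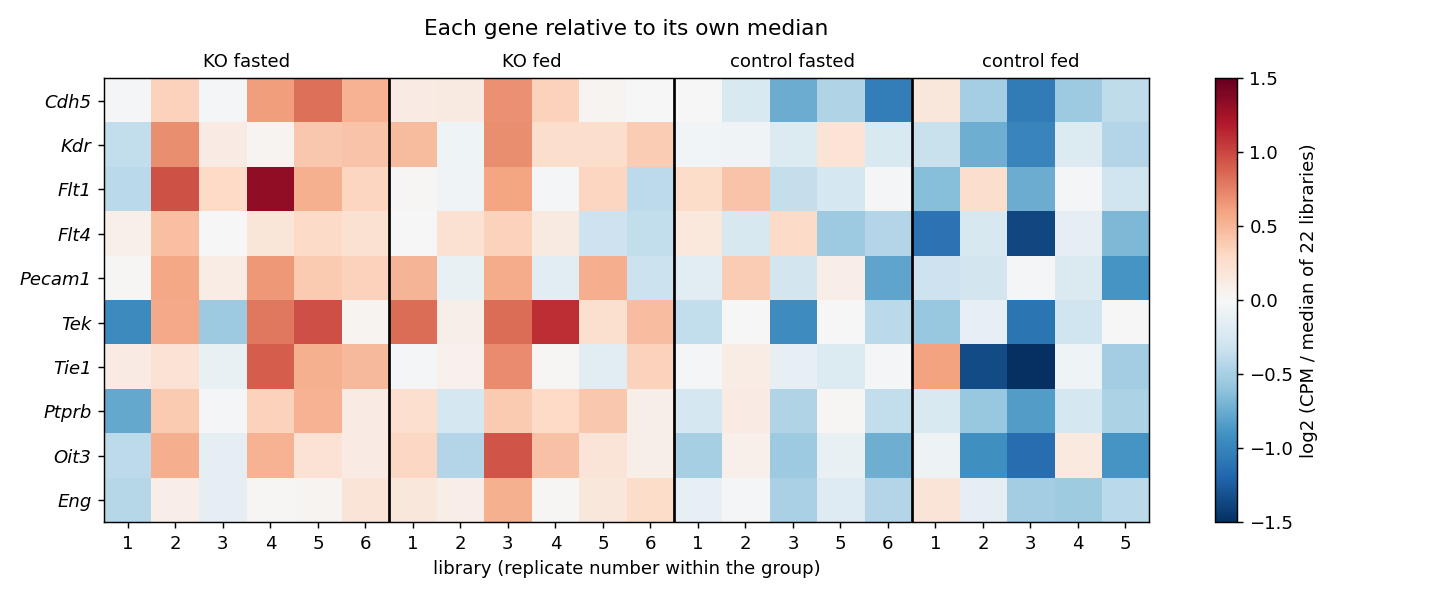
Log2 CPM of the 10 genes in each of the 22 libraries, as the difference from the median of the gene over these libraries (red above, blue below), with libraries in columns by group from knockout fasted to control fed. Control fed replicate 3, with a summed level of 131 CPM, lies above the median in 0 of the 10 genes, and knockout fed replicate 3, with 352 CPM, in all 10.

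Outside the 10, the genes whose log2 CPM followed their mean most closely within groups were Ets1 (r = 0.84 over the 22 libraries), a transcription factor of the ETS family, Mrc1 (0.80), the mannose receptor of sinusoidal endothelium and macrophages, Sparc (0.80), a matrix protein, and Gpr182 (0.78), a receptor of sinusoidal endothelium. Rin2 (0.78), Slfn5 (0.77), the integrin chain Itga9 (0.76) and moesin, Msn (0.76), followed. Of these 8, 2 were called between genotypes on average over the feeding states: Mrc1 at a log2 fold change of 0.76 ± 0.13 (edgeR, Benjamini-Hochberg adjusted p = 0.0130) and Msn at 0.82 ± 0.12 (adjusted p = 0.000873). Both calls held without any 1 of the 22 libraries. They ended with the library that carried kidney transcripts kept (adjusted p = 0.501 for Mrc1 and 0.669 for Msn), and that of Mrc1 also in the limma fit with the random block (adjusted p = 0.123). Ets1 was at 0.55 ± 0.14 (adjusted p = 0.175) and did not pass. Mrc1 averaged 24.5 ± 4.88 CPM in knockout fed livers (n = 6) and 13.6 ± 2.51 CPM in control fed livers (n = 5), and 27.2 ± 7.86 CPM in knockout fasted (n = 6) and 17 ± 3.64 CPM in control fasted livers (n = 5).

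The ligands and co-receptors of these receptors were mostly without a call. Of 10 such genes 8 were tested, and 0 were called between genotypes, with a median averaged log2 fold change of 0.28. Vegfa, the ligand of Kdr and Flt1, averaged 158 ± 36 CPM in knockout fasted and 134 ± 29.1 CPM in control fasted livers, and 132 ± 10.3 CPM in knockout fed and 117 ± 14.5 CPM in control fed livers, an averaged log2 fold change of 0.21 ± 0.10 (edgeR, Benjamini-Hochberg adjusted p = 0.539). Vegfb, a ligand of Flt1, fell with fasting in both genotypes. It averaged 11.5 ± 2.12 CPM in fasted and 18.2 ± 6.42 CPM in fed knockout livers, a log2 fold change of -0.66 ± 0.18 (adjusted p = 0.0187), and 13.2 ± 1.87 CPM in fasted and 20.2 ± 2.34 CPM in fed control livers, -0.62 ± 0.20 (adjusted p = 0.0445). Nrp1, a co-receptor for vascular endothelial growth factors, fell with fasting in control mice, to 43.8 ± 4.73 CPM in fasted livers, against 61.1 ± 4.92 CPM in fed livers, a log2 fold change of -0.48 ± 0.15 (adjusted p = 0.0390). The Vegfb call in knockout mice ended without knockout fasted replicate 5 or knockout fed replicate 6 (adjusted p of 0.0533 to 0.114). In control mice it ended without any 1 of 12 libraries, control fed replicates 1 to 5, control fasted 1, 2, 3 and 5, knockout fed 1 and 2 and knockout fasted 6 (0.0509 to 0.123). The Nrp1 call ended with any of control fasted replicates 1, 3, 5 and 6 and control fed replicates 2 to 5 left out (0.0557 to 0.102). With the kidney library kept, adjusted p was 0.149 and 0.422 for Vegfb in knockout and control mice and 0.0902 for Nrp1. The ligand Pgf and Angpt4 were not tested, each under the filter.

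In the endoglin pathway 15 genes were tested, 0 were called between genotypes and the median averaged log2 fold change was 0.11. Smad4, the shared carrier of the signal to the nucleus, rose with fasting in control mice, by 0.41 ± 0.13 on the log2 scale (edgeR, Benjamini-Hochberg adjusted p = 0.0480). Of 16 junction partners 0 were called between genotypes, with a median averaged log2 fold change of 0.06. Ctnnb1, which encodes the beta-catenin that binds cadherins, fell with fasting in control mice by 0.50 on the log2 scale (adjusted p = 0.00289), and Cgnl1, paracingulin, fell by 0.38 (adjusted p = 0.0265). The Smad4 call ended without any 1 of 14 libraries (adjusted p of 0.0504 to 0.106), all but control fed replicate 1, knockout fed 2, 3 and 5 and knockout fasted 2, 3, 4 and 5. That of Cgnl1 ended with any of control fasted replicates 2, 5 and 6 and control fed replicates 3 and 5 left out (0.0651 to 0.091), and that of Ctnnb1 held without each library. With the kidney library kept, the value was 0.41 for Cgnl1 (adjusted p = 0.599) and -0.31 for Ctnnb1 (adjusted p = 0.267). Both genes are also expressed in hepatocytes. Of 12 carriers of the receptors' signals 0 were called in any comparison. Their median averaged log2 fold change between genotypes was 0.18, with 10 of 12 above 0. The most abundant, Foxo3 and Akt1, had averaged log2 fold changes of -0.08 ± 0.14 and 0.02 ± 0.08.

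Of 16 endothelial transcription factors 0 were called between genotypes. The median averaged log2 fold change was 0.30, with 15 of 16 above 0. Maf averaged 44.7 ± 5.59 CPM in knockout fed and 28.4 ± 5.02 CPM in control fed livers, with an averaged log2 fold change of 0.52 ± 0.11 (edgeR, Benjamini-Hochberg adjusted p = 0.0723), and Nr2f2 was at 0.06 ± 0.12. Of 14 sinusoidal endothelial markers 1, Mrc1, was called, 13 lay above 0 and the median was 0.38. Lyve1, a hyaluronan receptor, rose with fasting, to 11.1 ± 4.04 CPM in fasted knockout livers, against 5.58 ± 2.64 CPM in fed ones (adjusted p = 0.0449), and to 7.26 ± 2.74 CPM in fasted control livers, against 2.99 ± 1.24 CPM in fed ones (adjusted p = 0.0142). The list as a whole did not rise with fasting: 7 of the 14 markers lay above 0 and 7 below in each genotype. Its median log2 fold change for fasting was 0.06 in knockout and -0.02 in control mice. In knockout mice the Lyve1 call ended without any 1 of 13 libraries (adjusted p of 0.0517 to 0.155), all but knockout fasted replicates 1 and 6, knockout fed 3, control fasted 1, 2, 3 and 5 and control fed 1 and 4, and in control mice without control fasted replicate 3 (0.0578). With the kidney library kept, it was 0.615 in knockout and 0.423 in control mice. The 7 other vascular endothelial markers had a median averaged log2 fold change of 0.23 with 0 called, and Plvap and Egfl7, the most abundant of them, were at 0.05 ± 0.16 and -0.13 ± 0.13.

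Markers of other cell types were read beside the 10 genes, and none of these lists had a call between genotypes. The 11 Kupffer cell markers had a median averaged log2 fold change of 0.51, with 11 of 11 above 0 and 0 called. Their summed level was 216 to 345 CPM in knockout fed livers, against 168 to 274 CPM in control fed livers, and 175 to 358 CPM in knockout fasted livers, against 156 to 189 CPM in control fasted livers. None of the 11 was at 0 in the series, and the most abundant, Clec4f, a defining marker, and Cd5l averaged 42.1 ± 9.65 and 41.5 ± 13.3 CPM (SD, n = 22). The 10 stellate cell markers had a median of 0.24 with 8 above 0 and 0 called, and summed to 240 to 312 CPM in knockout fed and 212 to 283 CPM in control fed livers, and to 195 to 278 CPM in knockout fasted and 141 to 251 CPM in control fasted livers. The 6 hepatocyte markers matched had a median of 0.05, and the 5 cholangiocyte markers tested a median of -0.26. Lymphocyte markers (8 tested) had a median of 0.42, platelet markers (3 tested) of -0.09 and red cell markers (6 tested) of -0.01, with 0 called in each. The most abundant lymphocyte markers were Cd79b and Cd79a at 1.04 ± 0.828 and 1.02 ± 0.507 CPM, and the most abundant platelet markers Itga2b and Pf4 at 4.64 ± 1.85 and 0.491 ± 0.507 CPM (SD, n = 22). Kidney markers summed to at most 0.893 CPM in knockout fed, 2.82 CPM in control fed, 3.05 CPM in knockout fasted and 14.3 CPM in control fasted livers. The part of these cell types in the values of the 10 genes was not tested.

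Some markers of these cell types were called between feeding states. The stellate cell collagen gene Col3a1 fell in both genotypes, with log2 fold changes of -1.45 ± 0.20 in knockout mice (edgeR, Benjamini-Hochberg adjusted p = 5.39e-06) and -1.33 ± 0.22 in control mice (adjusted p = 8.07e-05). Alas2, the enzyme of heme synthesis in red cells, was at -0.47 ± 0.13 in knockout (adjusted p = 0.0163) and -0.76 ± 0.14 in control mice (adjusted p = 2.80e-04). It did not stand for its list in knockout mice, where 5 of the 6 red cell markers lay above 0, with a median of 0.70. Among control mice 5 of the 6 lay below 0, with a median of -0.15. In control mice the collagen gene Col1a1 was at -1.17 ± 0.32 (adjusted p = 0.0163), the cholangiocyte marker Spp1 at -0.73 ± 0.20 (0.0166), the fibrinogen gene Fgb at -0.53 ± 0.14 (0.0129) and the apolipoprotein gene Apoa1 at 0.71 ± 0.20 (0.0234). The calls of Col3a1, of Alas2 in control mice and of Fgb held without each library. Those of Col1a1 ended without control fed or fasted replicate 5 (adjusted p of 0.0512 to 0.0933), of Spp1 without control fasted replicate 2 (0.0658), of Apoa1 with any of control fasted replicates 1, 2 and 5 and control fed replicates 3 and 5 left out (0.0506 to 0.0758), and of Alas2 in knockout mice without knockout fed replicate 3 or 4 or knockout fasted replicate 6 (0.0526 to 0.0681). With the kidney library kept, Col3a1 alone of these was called, and Spp1 was at 1.14.

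**Figure D5:**
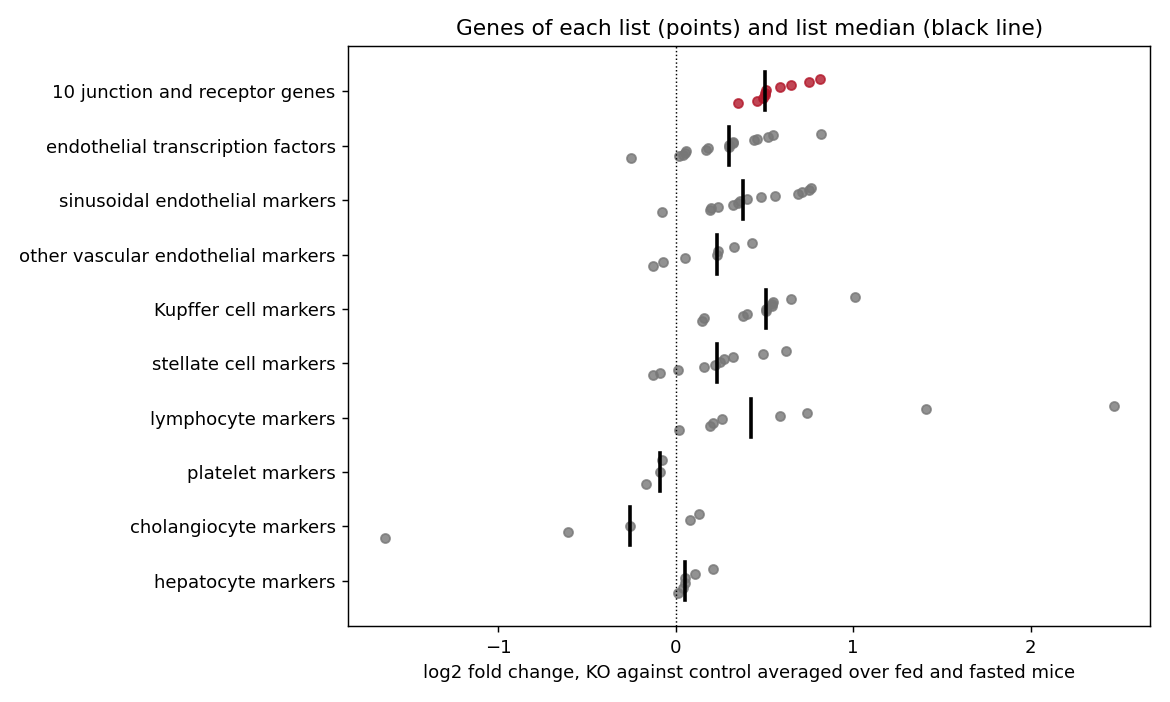
Averaged log2 fold changes between knockout and control livers for the 10 junction and receptor genes and some of the other gene lists. There is 1 point for each gene tested and a bar for the median of the list. Drawn are endothelial transcription factors, sinusoidal and other vascular endothelial markers, and markers of Kupffer cells, stellate cells, lymphocytes, platelets, cholangiocytes and hepatocytes. The 10 genes have a median of 0.50, Kupffer cell markers of 0.51, sinusoidal endothelial markers of 0.38 and hepatocyte markers of 0.05.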

How the data were processed

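Per the submitters' processing notes, bcl2fastq, the aligner STAR (2.5.1a) and the Subread counter featureCounts (1.4.6-p5) were used with GRCm38. For the annotation release and the strand setting, the sources used here give nothing. The deposited read counts per gene entered every test. Per the file headers, and as checked, deposited CPM is the count scaled to the library total and deposited RPKM is that value per kilobase of gene length. Both served as a check, and CPM also for the library left out. Symbols came from GENCODE M21 (40254 of 41388 genes). The damaged file held 964 complete lines, all on chromosome 1.

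The counts were fitted with edgeR 4.0.16 in R 4.3.3 (robust quasi-likelihood, TMM factors, filterByExpr by group with minimum count 10 and minimum total 15) over all 4 groups, without covariates. The threshold was a Benjamini-Hochberg adjusted p of 0.05 over all genes tested. Levels are CPM and RPKM scaled by TMM factors, and log2 CPM used a prior count of 2. Libraries held 18.4 to 55.3 M reads, and each of the 10 genes had at least 95 in every library. No library repeated the counts of another in its group: chi-square divided by its degrees of freedom was at least 37.4 over 50 within-group pairs. Pairs across groups were not compared, and the check does not show that libraries came from separate animals. The procedure was tested on simulated counts.

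The 10 genes and the 16 other gene lists were chosen with earlier results of these data known. Of the hepatocyte list, Tf was not matched. From the other lists, up to 4 called genes were named, or the 2 of highest level where none was called, and 8 genes were named by likeness where mean log2 CPM reached 2 or more. The genotype difference averaged over feeding states was added after the data were seen. Results were recomputed with DESeq2 1.42.0, with limma 3.58.1 (voom, sample weights), with RLE factors or library totals in place of TMM, with a filter of 1 count or of a mean CPM of 1, over the compared groups alone, with the kidney-like library put back, with neighbouring title numbers as a random block, and without each library. The random block was fitted with limma voom without sample weights, and no such fit was run without the block.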

Additional observations from a re-analysis of the deposited data

Results flagged for a closer look

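The library labelled control fasted replicate 4 was outside every comparison, since it carried 7041 deposited CPM of the kidney transcript Kap and 123 deposited CPM of Alb, against 46335 to 84821 deposited CPM of Alb in the other control fasted libraries. Of the 10 genes, 8 lay above the highest of the other 5 control fasted libraries there. The share of all genes that did so was not computed, so this count does not set the 10 genes apart. Among the genes of the junction, Cdh5 stood at 36.2 deposited CPM (against at most 14.7 in the other 5), Pecam1 at 54.3 (at most 14.2) and Ptprb at 66.5 (at most 57.5). Among the receptors, Kdr stood at 47.3 deposited CPM (at most 36.7), Flt1 at 59.3 (at most 12.7), Tek at 27.8 (at most 6.8), Tie1 at 47.1 (at most 12.6) and Eng at 73.4 (at most 45.3). Flt4, at 15.8 deposited CPM, lay below the other 5 (17.6 to 33.1). Oit3 was almost missing, with 4 reads or 0.0924 deposited CPM, against 11.2 to 17.9 in the other 5. These values describe 1 library, with no replicate check. Within the 4 groups used, no library stood apart from its group in any of the 10 genes by Dixon's ratio at the 95% level.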

How the results depend on the processing

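All 10 genes kept a log2 fold change above 0 between knockout and control livers in fed mice, in fasted mice and averaged, under every alternative run, with medians of 0.55 to 0.78 in fed mice, 0.26 to 0.55 in fasted mice and 0.47 to 0.57 averaged. Their calls were less stable. Averaged, the 2 called genes became 0 with a mean CPM of at least 1, with the kidney-like library kept and with the random block, and 1 with limma voom, and without 1 library the count ran from 0 to 4. In fed mice Kdr was 1 call with library totals, without the filter and with DESeq2, and the count ran from 0 to 1 without 1 library, as it did for fasting in control mice. For the other comparisons it stayed at 0. Over all genes, averaged calls numbered 6, with 12 for library totals, 12 without the filter, 3 with a mean CPM of at least 1, 19 by DESeq2, 1 with the kidney-like library and 2 with the block (3 to 15 without 1 library). Genotype calls in fed mice numbered 1, with 5 for library totals, 14 without the filter, 64 by DESeq2 and 0 with the kidney-like library (1 to 13 without 1 library), and in fasted mice 1, with 3 by DESeq2 and 0 with the kidney-like library. The interaction gave 1, with 6 by DESeq2, 0 with the kidney-like library and 0 to 1 without 1 library. With that library kept, fasting gave 805 calls in control mice, against 1360, and 379 in knockout mice, against 1029. Signs of the 10 genes that turned were all of uncalled values. Of other called genes, Cgnl1 and Spp1 turned, to 0.41 and 1.14 for fasting in control mice with the kidney-like library. Limma voom ended the fasting calls of Vegfb in both genotypes and of Nrp1, Smad4 and Lyve1 in control mice. The limma fit with the block ended those of Vegfb, Smad4, Lyve1 and Col1a1 in control mice. That fit differed from the edgeR fit in method as well as in the block, and these parts were not separated. Library totals ended those of Vegfb and Smad4 in control mice and of Lyve1 in knockout mice. Without the filter, those of Smad4, Cgnl1 and Apoa1 in control mice ended. The fit of only the groups compared ended those of Vegfb in knockout mice and of Col1a1 in control mice. In control mice the fasting value of Cdh5 became 0.14 with the kidney-like library and ran from -0.18 to 0.15 without 1 library, that of Eng became -0.01 with library totals and ran from -0.05 to 0.16, that of Tek became -0.01 with limma voom and ran from -0.08 to 0.18, and that of Oit3 -0.11 with the kidney-like library. In knockout mice that of Kdr ran from -0.20 to 0.00, that of Oit3 from -0.25 to 0.03 and that of Ptprb from -0.14 to 0.07 without 1 library. The interaction became -0.29 for Flt1 with the kidney-like library, and 0.05 for Pecam1 with the block, and without 1 library it ran from -0.19 to 0.09 for Pecam1 and from -0.53 to 0.09 for Tie1. The cause of these changes was not tested. No paired analysis was possible because the labels give no replicate numbers shared between groups; the 10 clusters of neighbouring title numbers used as a random block had an estimated correlation of -0.013. The fit of only the groups compared was not run for the interaction or the averaged difference. Tek and Flt1 had the fewest reads, at least 95 and 175 in a library.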
